A study of Saccharomyces cerevisiae and Schizosaccharomyces pombe with 8 samples.

Results

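Cleavage and polyadenylation positions that lie antisense to a protein-coding gene were examined in the budding yeast Saccharomyces cerevisiae grown in minimal medium or in rich medium. A position was taken where the RNA ran on the strand opposite to a coding gene, between that gene's start codon and stop codon, and did not lie inside a coding gene of its own strand or within 500 nt past the stop codon of one. The gene on the opposite strand is called the host. The rule took 15694 of 184505 nuclear cleavage positions (8.51%), out of 509343 positions counted in the series, which also holds the fission yeast S. pombe. The positions fell in 2936 of 6002 coding genes and held 45030 reads. The 4 libraries compared are all wild type by genotype, with 2 libraries from minimal medium and 2 from rich medium. The labels give neither the strain, the recipes of the media nor whether the 2 libraries of a medium came from separate cultures, so p-values measure the spread between these libraries, which may be technical.

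Genes of budding yeast are packed closely, and much of the antisense RNA opposite to a gene begins in the gap past its stop codon and runs backwards into it. When the gene past the stop codon points the same way as the host (a tandem neighbour), RNA that starts at that neighbour's promoter and runs away from it enters the host from its 3′ end. When the neighbour points towards the host (a convergent neighbour), RNA that passes the neighbour's own end also enters the host there. Many antisense RNAs of this yeast are ended by the Nrd1-Nab3-Sen1 complex and destroyed by the nuclear exosome, and others end at the poly(A) signals used by mRNAs, where the element upstream of the cut with the largest effect is called the efficiency element. The libraries record where polyadenylated RNA ended and not where it began.

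The sequences upstream of the most used antisense cleavage position show how the sites compare with mRNA ends. They are shown for hosts that the results below turn on, read on the strand of the antisense RNA from R64, 5′ to 3′, with the efficiency element in capitals where it lies 20 to 80 nt upstream of the cut. Its forms searched were TACATA and TACGTA, and with T at the third base TATATA and TATGTA. The first 6 windows lie inside the host's coding sequence and run from 80 nt upstream of the cleavage position to 10 nt past it. They are chrXV:547741-547831 on the minus strand for RTC5, chrIV:219685-219775 on the plus strand for PPH21, chrII:698668-698758 on the plus strand for ERT1, chrXIII:698019-698109 on the minus strand for GAS3, chrXV:82150-82240 on the plus strand for MDH2 and chrVII:33946-34036 on the minus strand for ZIP2.
RTC5: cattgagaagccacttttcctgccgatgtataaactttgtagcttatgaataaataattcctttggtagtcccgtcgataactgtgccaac
PPH21: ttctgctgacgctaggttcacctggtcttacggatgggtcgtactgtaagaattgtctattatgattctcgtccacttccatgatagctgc
ERT1: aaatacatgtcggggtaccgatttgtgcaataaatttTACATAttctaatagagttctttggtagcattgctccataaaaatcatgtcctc
GAS3: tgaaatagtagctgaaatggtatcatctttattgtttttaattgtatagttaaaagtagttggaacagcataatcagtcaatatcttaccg
MDH2: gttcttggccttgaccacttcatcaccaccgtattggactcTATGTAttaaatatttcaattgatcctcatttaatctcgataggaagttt
ZIP2: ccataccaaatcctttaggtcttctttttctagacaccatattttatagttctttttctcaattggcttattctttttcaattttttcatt
At 4 hosts the cut lay within 12 nt of the stop codon, and only 30 bases are shown. For GTR2 (chrVII:828593-828622, minus strand), ODC1 (chrXVI:298503-298532, plus strand) and NAT1 (chrIV:378809-378838, plus strand) these hold the elements and end 18, 51 and 41 nt upstream of the cut. For YML122C (chrXIII:26022-26051, plus strand), which has no such element, they end 10 nt past it.
GTR2: tcaaTATGTAtcTATATAccctaatatttt
ODC1: aTATATATATATATATACGTAtacatgtat
NAT1: cataTACATAaaaaaTATATACATAaatta
YML122C: tcatagatgaggtcggttaattaatgagta
The elements overlap one another in the TA repeat of ODC1 and in NAT1, so their number is not a number of separate signals. The windows of CCC2 and PTI1, not shown, held no element.

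An efficiency element stood upstream of 42.1% of the well-used antisense sites, beside 67.4% of mRNA ends and 4.46% of the bases that could have been antisense positions and were not followed by A. Positions within 24 nt of a more used one were joined to it, which gave 7859 sites. Of the 397 sites with at least 20 reads over the 4 libraries, 42.1% had the element 20 to 80 nt upstream, searched on the RNA strand alone (95% Wilson interval 37.3% to 47.0%). The share was 24.5% of 3274 sites with 2 to 19 reads (23.1% to 26.0%) and 16.0% of 4188 sites with 1 read (14.9% to 17.1%). At the most used sense position past the stop codon of 3919 genes it was 67.4% (65.9% to 68.8%). Every base that could have been an antisense position, other than those followed by A, was scanned the same way, and 4.46% of those 5810203 bases had the element. These bases were not matched to the sites for position in the host. Windows of sites near a host's stop codon reach into the gap past it. How much of the contrast goes with position was not tested. The hexamer AATAAA, searched 10 to 35 nt before the cut, was found at 3.78% of the sites with at least 20 reads, 7.94% of the sense positions and 1.51% of all such bases. The short motifs bound by Nrd1 (GTAA or GTAG) averaged 0.846 copies in the 100 nt upstream of these antisense sites, 0.876 at the sense positions and 0.829 at all such bases. TCTT, bound by Nab3, averaged 1.06, 0.759 and 1.13 copies in the same order. These are descriptions of letters in a window, and the intervals treat sites as independent.

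Internal priming on genomic A runs is a known source of false 3′ ends in methods of this kind. As a description, the share of reads whose next 10 genomic bases held at least 6 A was taken. It was 1.56% and 1.58% of antisense reads in minimal medium, against 1.33% and 1.38% in rich medium, 2.00% of sense reads and 2.18% of the bases that could have been antisense positions, leaving out those followed by A. At the 274 antisense positions with at least 20 reads the next base was A at 0%, beside 0.221% of all 18999 nuclear positions with so many reads. Positions of every kind were thus almost never followed by A, so this value does not measure internal priming. The share with at least 6 A is limited in the same way, since runs of A that start right after the cut are almost absent. How many reads came from internal priming was not tested.

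Antisense reads made up a smaller share of the libraries from minimal medium than of those from rich medium. Minimal medium libraries held 7618 and 7980 antisense reads among 1174188 and 1253020 nuclear reads, and rich medium libraries held 16397 and 13035 among 2057268 and 1558006. The share was 0.649% (95% Wilson interval 0.634% to 0.663%) and 0.637% (0.623% to 0.651%) in minimal medium, against 0.797% (0.785% to 0.809%) and 0.837% (0.822% to 0.851%) in rich medium. The media did not overlap, and the means were 0.643% ± 0.00843 (SD, n = 2) and 0.817% ± 0.0280 (SD, n = 2). The difference was -0.174 percentage points, with p = 0.333 by exact two-sided permutation, which is as low as 2 libraries against 2 can go. YHB1, for flavohemoglobin, took the most sense reads, and with its reads left out of the total the difference was -0.193 percentage points. In these bulk libraries fewer cells with an RNA and less of it per cell cannot be told apart.

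More host genes had an antisense read in rich medium also when depth was equalised. At the depth of the smallest library, 1174188 nuclear reads, 1556 and 1576 hosts had at least 1 antisense read in minimal medium, against 1703 and 1764 in rich medium (exact two-sided permutation p = 0.333). The antisense reads also lay further from the host's stop codon in minimal medium. The read-weighted median position was 75.1% and 75.2% of the coding span from the start codon in minimal medium, against 86.2% and 84.9% in rich medium (exact p = 0.333). In minimal medium replicate 2 the median equalled the position of the main site of ERT1, a host with many reads. A single well-used site can thus set this value, and no alternative without ERT1 was run. All 3 measures separated the media without overlap, as the plot of library summaries shows. Depth was equalised on nuclear reads and not on antisense reads. The number of hosts therefore also follows the antisense share and is not a separate result.

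**Figure D1:**
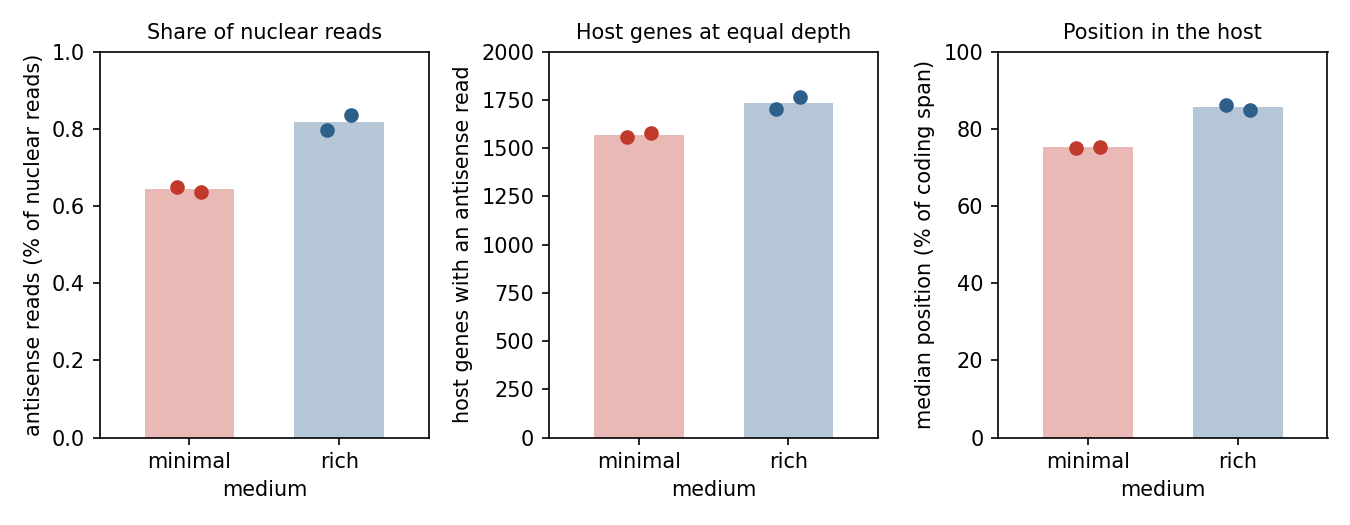
Antisense share of nuclear reads (%), host genes with an antisense read at the depth of the smallest library, and read-weighted median position in the host (% of the coding span from the start codon), by medium. Bars are means of 2 libraries and points are libraries, with both minimal medium libraries (share 0.649% and 0.637%) below both rich medium libraries (0.797% and 0.837%) in each panel.

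The libraries of the media stood furthest apart at the 3′ end of the hosts. Reads were scaled to 1000000 nuclear reads per library (CPM) and divided by the length of sequence in which an antisense position could lie, which gave CPM per eligible kb. In the last 10% of the coding span, next to the stop codon, this rate was 4.38 and 4.32 in minimal medium, against 6.59 and 6.70 in rich medium. That stretch held 37.1% of antisense reads in minimal medium and 44.6% in rich medium. In the 10% before it the rate was 0.812 and 0.868 in minimal medium, against 1.12 and 1.14 in rich medium. From the start codon to 80% of the span the rate of single 10% steps was between 0.293 and 0.777 in minimal medium and between 0.315 and 0.796 in rich medium. The media overlapped in some of those steps and stood apart by less in others, such as 0.652 and 0.616 in minimal medium, against 0.719 and 0.791 in rich medium between 60% and 70% of the span.

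**Figure D2:**
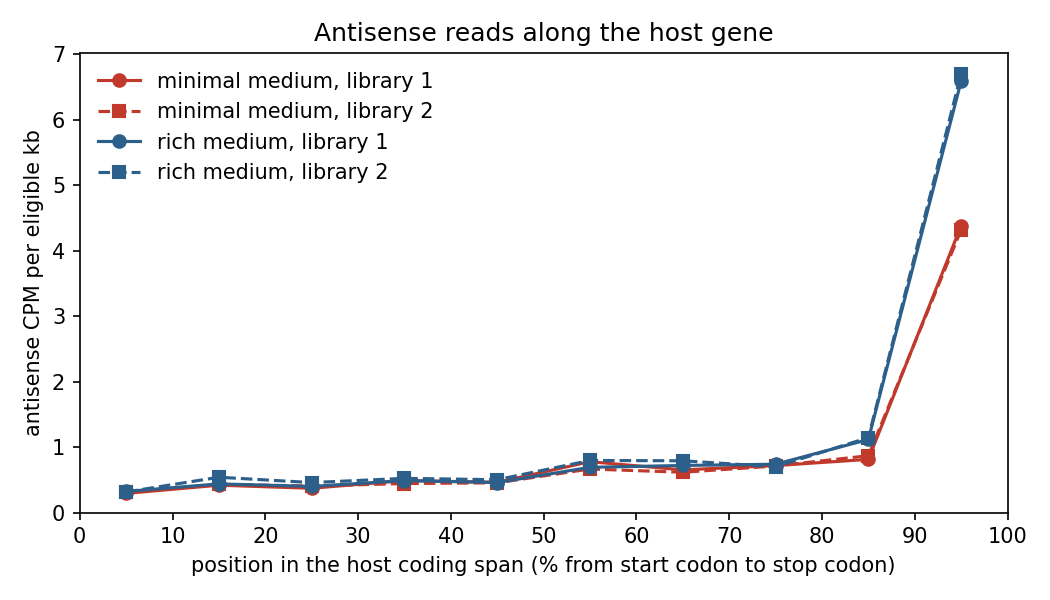
Antisense CPM per eligible kb in each 10% step of the host coding span, from start codon to stop codon, with 1 line per library. The last step stands at 4.38 and 4.32 in minimal medium, against 6.59 and 6.70 in rich medium, and single steps up to 80% of the span stay at or under 0.796 in every library.

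Many antisense positions sat at the stop codon itself. Positions within 50 nt of the host's stop codon held 28.8% of antisense reads in minimal medium and 34.9% in rich medium, and positions within 50 nt of the start codon held 2.04% in minimal medium and 1.98% in rich medium. With those positions at both ends left out, a choice made after seeing this, the antisense share was 0.446% and 0.441% of nuclear reads in minimal medium, against 0.497% and 0.530% in rich medium, a difference of -0.0701 percentage points. The median position was then 58.8% and 60.0% of the span in minimal medium, against 63.3% and 61.6% in rich medium. Both gaps between the media were smaller without the ends of the hosts. On the other side of the limit, the first 100 nt past the stop codon of a host had 6.47 and 6.25 CPM per eligible kb in minimal medium, against 11 and 11.5 in rich medium. The last 100 nt before the stop codon had 6.98 and 6.79 in minimal medium, against 10.4 and 10.7 in rich medium.

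The media stood further apart opposite hosts with a tandem neighbour than opposite hosts with a convergent one. Opposite hosts with a tandem neighbour the antisense rate was 0.866 and 0.855 CPM per eligible kb in minimal medium, against 1.21 and 1.26 in rich medium. Opposite hosts with a convergent neighbour it was 0.759 and 0.740 in minimal medium, against 0.771 and 0.821 in rich medium. Reads in tandem hosts over reads in convergent hosts came to 1.25 and 1.27 in minimal medium, against 1.73 and 1.69 in rich medium (log2 difference -0.44, exact two-sided permutation p = 0.333).

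Distance from the end of the upstream gene on the same strand separated the reads in the same way. Between 500 and 1000 nt past a same-strand stop codon the rate was 1.59 and 1.52 in minimal medium, against 1.5 and 1.57 in rich medium, and the media overlapped. Between 1000 and 2000 nt it was 0.785 and 0.777 in minimal medium, against 1.01 and 1.09 in rich medium. Between 2000 and 4000 nt it was 0.549 and 0.534 in minimal medium, against 0.759 and 0.779 in rich medium. Beyond 4000 nt it was 0.688 and 0.695 in minimal medium, against 0.941 and 0.987 in rich medium. Reads over 1000 nt past a stop codon therefore outnumbered those at 500 to 1000 nt by 2.39 and 2.49 times in minimal medium and by 3.41 and 3.44 times in rich medium (exact p = 0.333).

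Neighbour and distance go together in this genome, since 1177419 of the 1201330 eligible nt at 500 to 1000 nt lie in hosts with a convergent neighbour. Over 1000 nt past a stop codon, tandem hosts had 0.848 and 0.843 CPM per eligible kb in minimal medium, against 1.19 and 1.24 in rich medium, and convergent hosts 0.405 and 0.401 in minimal medium, against 0.472 and 0.510 in rich medium. The limit of 500 nt in the rule falls on a slope. In the 100 nt before that limit, on positions that also lay antisense to a gene, the rate was 5.36 and 5.29 in minimal medium, against 5.16 and 5.25 in rich medium. In the 100 nt after it the rate was 2.95 and 2.71 in minimal medium, against 2.30 and 2.53 in rich medium. Ends of same-strand mRNAs that run past 500 nt cannot be told apart from other antisense RNAs in that band.

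**Figure D3:**
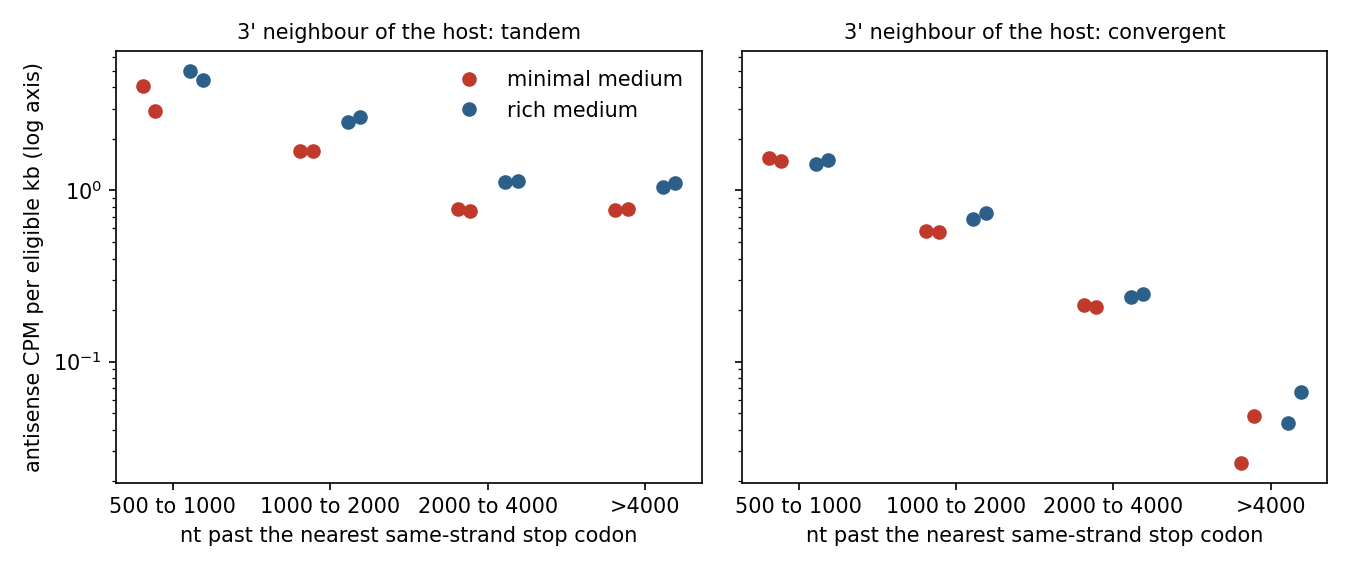
Antisense CPM per eligible kb (log axis) by distance past the nearest same-strand stop codon, in hosts with a tandem 3′ neighbour and in hosts with a convergent one, with 1 point per library. Rich medium libraries lie above minimal medium libraries in all 4 tandem classes, and at 500 to 1000 nt in convergent hosts the media overlap at 1.55 and 1.49 in minimal medium, against 1.43 and 1.51 in rich medium.

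Reads were thin over most hosts. Of the 15694 positions 10540 (67.2%) had 1 read, and 786 of the 2936 hosts had a single antisense read. A host with any read had a median antisense level of 0.603 CPM. At least 20 reads were found in 496 hosts, and 248 passed the filter on low counts, at 7.29 CPM in 2 libraries. Of these 122 reached that level in both libraries of each medium, 78 in both rich medium libraries but not both minimal medium ones, 32 in both minimal medium libraries but not both rich medium ones and 16 otherwise, so counts over the 248 lean on hosts that are high in 1 medium. The 248 hosts had a median of 5.5 sites each (1 to 22), and the main site held a median of 70.4% of the host's antisense reads. All 248 main sites lay in coding exons, and at 7 of them the most used position of the site lay just outside the positions taken by the rule.

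Each host's antisense reads were tested between media with edgeR in 1 table with the sense reads of all genes, and adjusted p-values are over all 4885 features. Of these features 1650 (33.8%) passed an adjusted p of 0.05, with 863 (17.7%) higher and 787 (16.1%) lower in minimal medium. Among the 248 antisense features 89 (35.9%) passed, with 19 (7.66%) higher and 70 (28.2%) lower in minimal medium. Their median log2 change, minimal minus rich, was -0.30, beside -0.02 over all features and 0.00 over the 4637 sense features. Among the 122 hosts that reached the filter level in all 4 libraries, 7 were higher and 24 lower, with a median of -0.22. The lower hosts among these 122 were a smaller share than the 28.2% of the 248, and one nearer the 16.1% of all features. The higher ones were a smaller share than the 17.7% of all features. Shares over sense features filtered in the same way are not given here.

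The count of 89 was lower without either minimal medium library, as was the count over all features, and 1 library then stood for that medium. The median antisense log2 change was -0.44 without minimal medium replicate 1 and -0.44 without minimal medium replicate 2. The count was 43 of 158 hosts, beside 1600 of 4795 features, without positions within 50 nt of the host's ends. DESeq2 called 24 hosts, all among the 89, beside 852 of 4885 features. It gave no adjusted p for 80 hosts, of which 28 were among the 89. Of 30 called hosts named here, 12 kept the call under every alternative that gave a value (AIM21, CCC2, CDS1, GAS3, MET4, NAT1, ODC1, PDS1, PTI1, RTC5, VPS75 and YML122C), and 18 lost it without 1 of the libraries.

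Called hosts divided by neighbour as the totals did, but they hold part of the same reads, so this is not separate support. The 248 also include 78 hosts that reached the filter level in both rich medium libraries but not both minimal medium ones. The split among the 122 that reached it in all 4 libraries is not given here. Of the 70 lower in minimal medium, 55 had a tandem neighbour and 15 a convergent one, and of the 19 higher, 10 had a tandem and 9 a convergent one, against 152 tandem and 96 convergent among the 248. The main site of the median lower host lay at 96.3% of the coding span and that of the median higher host at 68.2%, beside 83.2% over all 248.

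The 10 hosts with the highest antisense CPM, averaged over the 4 libraries, held 14.4% and 14.0% of antisense reads in minimal medium, against 10.5% and 11% in rich medium. GTR2 (YGR163W), for a GTPase that acts with TORC1 in nutrient signalling, had the highest mean, with 111.6 and 103.7 antisense CPM in minimal medium, against 157 and 165 in rich medium. It fell by 0.50 on the log2 scale (SE 0.19, adjusted p = 0.036), a call lost with DESeq2 (adjusted p = 0.13), with no filter on low counts (adjusted p = 0.077) and without minimal medium replicate 1 (adjusted p = 0.29) or 2 (adjusted p = 0.39). Its main site on the minus strand lay 2 nt inside the stop codon and 50 nt from the start of the tandem neighbour YGR164W, and sense reads past that start count for YGR164W, so GTR2's own sense level is understated here.

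Levels in 4 other hosts of the 10 passed the test. ODC1 (YPL134C), for a mitochondrial carrier of oxodicarboxylates, had 147 and 164 antisense CPM in minimal medium, against 58.8 and 71.9 in rich medium (log2 1.34, SE 0.20, adjusted p = 4.2e-06). Its site lay 533 nt past the stop codon of the convergent neighbour ISU1, for the scaffold on which iron-sulfur clusters are built, and ISU1's own sense reads were 41.7 and 31.9 CPM in minimal medium, against 12.2 and 21.8 in rich medium (log2 1.23, adjusted p = 0.0022). An antisense end so close to the 500 nt limit cannot be told apart from a long ISU1 mRNA. RTC5 (YOR118W) had 149.9 and 143.7 antisense CPM in minimal medium, against 73.4 and 68.0 in rich medium (log2 1.13, SE 0.19, adjusted p = 3.6e-05), at 9 sites of which the main one lay 809 nt inside the stop codon. The neighbour of RTC5, the ribosome biogenesis kinase gene RIO1, stood at log2 0.56 (adjusted p = 0.059). IMG1 (YCR046C), for a protein of the mitochondrial ribosome, had 74.1 and 79.0 antisense CPM in minimal medium, against 45.2 and 52.0 in rich medium (log2 0.74, adjusted p = 0.0078), with its sense reads at log2 1.41 (adjusted p = 0.0026). The IMG1 antisense call was lost with DESeq2 (adjusted p = 0.066) and without minimal medium replicate 1 (0.072) or 2 (0.14). PPH21 (YDL134C), for a catalytic subunit of protein phosphatase 2A, had 48.5 and 55.1 antisense CPM in minimal medium, against 104.5 and 97.6 in rich medium (log2 -0.88, SE 0.21, adjusted p = 0.0016), lost without minimal medium replicate 1 (adjusted p = 0.12).

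The other five hosts of the 10 did not pass. YEL023C had 113 and 102 antisense CPM in minimal medium, against 113 and 129.7 in rich medium, from a site 4 nt inside its stop codon and 601 nt past that of RIP1, for the Rieske protein of respiratory complex III. MRK1, for a kinase of the GSK-3 family, had 75.8 and 64.6 in minimal medium, against 78.7 and 95.6 in rich medium (log2 -0.23, adjusted p = 0.43), and -0.63 (adjusted p = 0.036) when positions before A-rich sequence were left out. NGK1, ERT1 and CSS1 had log2 changes of -0.37, 0.50 and -0.53 with adjusted p of 0.2, 0.082 and 0.079, and all 3 passed without rich medium replicate 1. ERT1 encodes a regulator of genes for growth on non-fermentable carbon. CSS1 has a close paralogue, and how reads of such copies were placed is not given in the sources used here.

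Among hosts whose antisense reads were higher in minimal medium, the largest change was at YML122C, next to the phosphate transporter gene PHO84. YML122C had 9 and 12 antisense reads in minimal medium (7.67 and 9.58 CPM), against 0 and 1 in rich medium (0 and 0.642 CPM). The ratio of minimal to rich reads at equal depth was 31.3 with a counting interval of 5.03 to 1294, and the fitted log2 change was 4.67 (SE 0.75, adjusted p = 1.5e-05). The antisense reads of YML122C fell inside the annotated noncoding RNA gene YNCM0001W (chrXIII:23564-26578, plus strand), which runs opposite to PHO84. Over all its positions, those outside the rule included, YNCM0001W had 21.3 and 16.8 CPM in minimal medium, against 3.4 and 2.57 in rich medium. PHO84 sense reads were 4 and 0 in minimal medium (3.41 and 0 CPM), against 940 and 576 in rich medium (456.9 and 369.7 CPM), a log2 change of -7.82 (adjusted p = 9.5e-17). Reads over YNCM0001W, which also runs opposite to TUB3 and YML122C, were thus higher in minimal medium, and PHO84 sense reads were higher in rich medium. Inside the PHO84 coding sequence itself there were 0 and 1 antisense reads in minimal medium, against 1 and 0 in rich medium.

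CCC2 (YDR270W), for the copper pump of the Golgi, had 15 and 13 antisense reads in minimal medium (12.8 and 10.4 CPM), against 3 and 5 in rich medium (1.46 and 3.21 CPM), a log2 change of 2.41 (SE 0.49, adjusted p = 0.00029). Its sense reads went the other way, at 5.11 and 4.79 CPM in minimal medium, against 11.2 and 18.0 in rich medium (log2 -1.43, adjusted p = 0.011). PTI1 (YGR156W), for a subunit of the cleavage and polyadenylation factor, had 15.3 and 14.4 antisense CPM in minimal medium, against 3.4 and 5.13 in rich medium (log2 1.89, SE 0.41, adjusted p = 0.00065), spread over 12 sites of which the largest held 24.4%. The sense reads of PTI1 did not pass (log2 -0.13, adjusted p = 0.81). PDS1, for securin, had 18.7 and 23.9 antisense CPM in minimal medium, against 6.32 and 8.99 in rich medium (log2 1.58, adjusted p = 0.00088), beside a tandem neighbour, ALT2, whose sense reads were also higher in minimal medium (log2 1.35, adjusted p = 0.00071). VPS75, for a histone chaperone, had 69.0 and 55.1 antisense CPM in minimal medium, against 19.4 and 37.9 in rich medium (log2 1.23, adjusted p = 0.00066). Its main site lay 725 nt past a same-strand stop codon.

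Each of the other four of the 10 largest rises lost its call without 1 library or more. SWF1, for a palmitoyltransferase, changed by log2 1.72 and ECM18 by 1.44. CDC16, for a subunit of the anaphase-promoting complex, changed by 1.28 and PER1, for remodelling of GPI anchors, by 1.22. Adjusted p ran from 0.0016 to 0.028. The main sites of ECM18 and CDC16 lay 541 and 580 nt past the stop codon of a convergent neighbour, and cannot be told apart from a long mRNA of that neighbour. The neighbour of CDC16, SKA1, was itself higher in minimal medium (log2 0.85, adjusted p = 0.049). In every one of the 10 both minimal medium libraries lay above both rich medium libraries, which the choice by called change in these libraries makes likely.

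Among the 10 largest falls in minimal medium, the host with the most antisense reads was NAT1 (YDL040C), for the large subunit of the NatA N-terminal acetyltransferase. NAT1 had 25 and 23 antisense reads in minimal medium (21.3 and 18.4 CPM), against 148 and 181 in rich medium (71.9 and 116 CPM), a log2 change of -2.15 (SE 0.27, adjusted p = 2.9e-07). Its site lay 5 nt inside the stop codon, 6344 nt past the nearest same-strand stop codon, with a gap of 428 nt between NAT1 and the tandem neighbour SIR2, for the silencing deacetylase. SIR2 sense reads were 18.7 and 24.7 CPM in minimal medium, against 17.0 and 15.4 in rich medium (log2 0.50, adjusted p = 0.22), and NAT1 sense reads had a log2 change of 0.17 (adjusted p = 0.7). The antisense change at NAT1 thus stood beside no called change of either gene.

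GAS3 (YMR215W), for a member of the glucanosyltransferase family of the cell wall, had 3.41 and 3.19 antisense CPM in minimal medium, against 18.0 and 27.6 in rich medium (log2 -2.65, SE 0.45, adjusted p = 3e-05), 96.3% of them at a site 341 nt inside the coding sequence. That site lay 782 nt past the stop codon of the convergent neighbour SKY1, so a long SKY1 mRNA cannot be told apart. Sense reads of SKY1 did not pass (log2 -0.01, adjusted p = 0.97). MET4 (YNL103W), for the activator of the sulfur amino acid genes, had 0 and 3 antisense reads in minimal medium (0 and 2.39 CPM), against 22 and 20 in rich medium (10.7 and 12.8 CPM), a log2 change of -3.08 (adjusted p = 0.00033). Its count ratio, rich over minimal, was 9.4 (3.0 to 47.4). MST28 (YAR033W), which has a close paralogue, had 2 and 0 antisense reads in minimal medium, against 19 and 12 in rich medium, a count ratio, rich over minimal, of 10.4 (2.65 to 89.7) and a log2 change of -3.18 (adjusted p = 0.00081). CDS1 (YBR029C), for CDP-diacylglycerol synthase of phospholipid synthesis, had 3.41 and 4.79 antisense CPM in minimal medium, against 22.4 and 18.0 in rich medium (log2 -2.21, adjusted p = 0.00016), while its sense reads were higher in minimal medium (log2 1.18, adjusted p = 2.3e-05). NPA3, for a GTPase needed for nuclear import of RNA polymerase II, showed the same contrast, with antisense reads at log2 -2.46 (adjusted p = 0.0013) and sense reads at 0.85 (adjusted p = 0.0017).

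The other four of the 10 largest falls were DGR2 at log2 -2.33, YCR085W at -2.29, AIM21, for a regulator of actin assembly, at -2.10 and HEM15, for the last enzyme of haem synthesis, at -2.05, with adjusted p from 0.00031 to 0.0072. MST28, NPA3, DGR2, YCR085W and HEM15 lost the call without 1 library. Both minimal medium libraries lay below both rich medium libraries in all 10, which the choice by called change in these libraries makes likely. Of the 10, 8 had a tandem neighbour, beside 55 of the 70 lower hosts, 10 of the 19 higher ones and 152 of all 248. The 10 were chosen by change in these same reads, and some, such as MET4 and MST28, reached the filter level in rich medium alone. Their neighbours are thus no separate support for a division by neighbour. The plot of antisense CPM per library shows the 20 hosts.

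**Figure D4:**
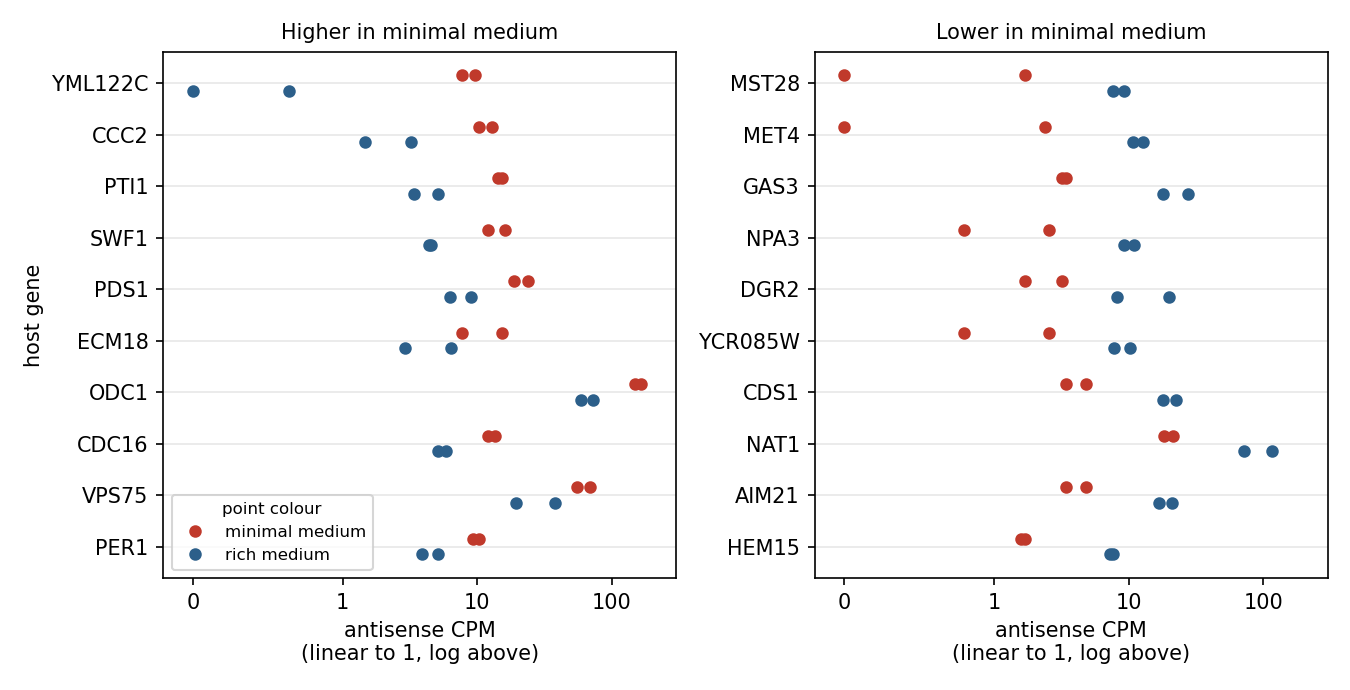
Antisense CPM in each library (axis linear to 1 and logarithmic above) for the 10 hosts with the largest called log2 change in each direction, ordered by size of change. No host has overlapping media, which the choice by called change makes likely. NAT1 for example stands at 21.3 and 18.4 in minimal medium, against 71.9 and 116 in rich medium.

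Genes known from other work for antisense RNAs had few antisense reads inside their coding sequence here. Of 9 such genes 8 had a read and 1, ZIP2, passed the filter. ZIP2, a meiosis gene whose antisense RNA is annotated as RME3, had 14.5 and 11.2 antisense CPM in minimal medium, against 20.4 and 18.0 in rich medium (log2 -0.51, SE 0.33, adjusted p = 0.24), against sense reads of 0.852 and 0 CPM in minimal medium, against 1.94 and 1.28 in rich medium. Antisense thus outnumbered sense at ZIP2 in every library. IME4, for the methyltransferase that acts on mRNA at entry to meiosis, had 2 and 1 antisense reads in minimal medium, against 4 and 5 in rich medium, with no sense read in any library. The annotated antisense RNA of IME4, RME2, had 11.9 and 7.98 CPM in minimal medium, against 7.78 and 8.99 in rich medium over all its positions. PHO5, for a phosphatase of the phosphate response, had 0 and 4 antisense reads in minimal medium, against 1 and 3 in rich medium. KCS1, CDC28, HMS2 and SUR7 had no more than 3 antisense reads in any library, and GAL10 had none, which allows up to 3 reads per library. The noncoding RNA annotated opposite to GAL10 had 6.81 and 7.18 CPM in minimal medium, against 5.35 and 7.70 in rich medium at positions outside the rule. TBRT, annotated opposite to TAT1, had 5.96 and 6.38 in minimal medium, against 16.0 and 26.3 in rich medium, almost all of them outside the rule too.

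Other gene lists were read from the same fit. Of 72 amino acid biosynthesis genes, whose sense reads were higher in 45 and lower in 2 of 69 tested in minimal medium, 37 had an antisense read and 3 passed the filter, with 2 lower and 0 higher in minimal medium. Over all features of each kind, 18.2% of sense features were higher and 15.5% lower, and 28.2% of antisense features were lower. The 2 lower hosts were ARG56 (YER069W), for 2 steps of arginine synthesis, and SER33, for the first step of serine synthesis. ARG56 had 1 and 9 antisense reads in minimal medium, against 24 and 23 in rich medium (log2 -1.57, adjusted p = 0.014), a call lost without minimal medium replicate 1 (adjusted p = 0.4). SER33 had 12 and 5 antisense reads in minimal medium, against 39 and 21 in rich medium (log2 -1.15, adjusted p = 0.03), lost without minimal medium replicate 2 (adjusted p = 0.46) or rich medium replicate 1 (0.22) and with DESeq2 (0.24).

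Meiosis and sporulation genes had 36 of 51 members with an antisense read, 6 tested and 1 called, SPS2, lower in minimal medium (log2 -1.69, adjusted p = 0.0097). SPS2 had 2 and 6 antisense reads in minimal medium, against 18 and 23 in rich medium, no sense read in any library, and lost its call without minimal medium replicate 1 (adjusted p = 0.24) or rich medium replicate 2 (0.13). The list as a whole had 100.5 and 124 antisense CPM in minimal medium, against 165 and 197 in rich medium. Phosphate response genes had 8 of 17 members with an antisense read and 1 tested, with 0 called, and alternative carbon source genes 22 of 45 with a read and 2 tested, with 0 called. For the 37 matched genes that decay, terminate or repress antisense RNA, 19 had an antisense read and 1 was tested and called. That was RRP6, for the nuclear exosome's own nuclease, with 5.11 and 7.18 antisense CPM in minimal medium, against 16.0 and 19.3 in rich medium (log2 -1.41, SE 0.39, adjusted p = 0.0062), a call lost without minimal medium replicate 1 (adjusted p = 0.12) and with DESeq2 (0.11).

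The sense reads of that last list are counts of mRNA ends from genes that act on antisense RNA, and not levels of their proteins. Of 35 tested genes 8 were higher and 5 lower in minimal medium, with a median log2 change of 0.22, while 18.2% of all 4637 sense features were higher and 15.5% lower. TRF5, for a poly(A) polymerase that marks RNA for the exosome, had 801 and 744 sense CPM in minimal medium, against 521 and 442 in rich medium (log2 0.76, adjusted p = 0.00087). RRP6 had 91.1 and 69.4 in minimal medium, against 48.1 and 38.5 in rich medium (log2 0.95, adjusted p = 0.0014). LRP1, for a partner of Rrp6, was lower in minimal medium (log2 -0.91, adjusted p = 0.0028), as was RCO1, for a subunit of the Rpd3S histone deacetylase (log2 -0.86, adjusted p = 0.0021). SET2, for the histone methyltransferase that guides Rpd3S, was higher (log2 0.66, adjusted p = 0.0051), as was the chromatin remodeller CHD1 (log2 1.12, adjusted p = 0.0081). Of the genes for the Nrd1-Nab3-Sen1 complex, NAB3 was higher (log2 0.75, adjusted p = 0.011). NRD1 (log2 0.56, adjusted p = 0.19) and SEN1 (log2 0.29, adjusted p = 0.66) did not pass. The part of these genes in the antisense reads was not tested.

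The antisense changes of hosts did not follow the sense changes of the same hosts in any line. Over the 188 hosts in which both were tested, the log2 changes had r = -0.06 and rho = -0.03, a description across genes that share libraries. In 28 of these hosts the sense change passed the test with the sign of the antisense change, in 24 it passed with the other sign, and in 136 it did not pass. Set against the 3′ neighbour, the changes over 205 hosts had r = -0.19 and rho = 0.03. The pair of YML122C (log2 4.67) and its neighbour PHO84 (-7.82) lies far out and weighs on r, which was not computed without it. The rank measure rho gives that pair less weight. The plot of both changes shows hosts such as CDS1, ARG56 and NPA3 with antisense lower and sense higher in minimal medium, and CCC2 with the reverse.

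**Figure D5:**
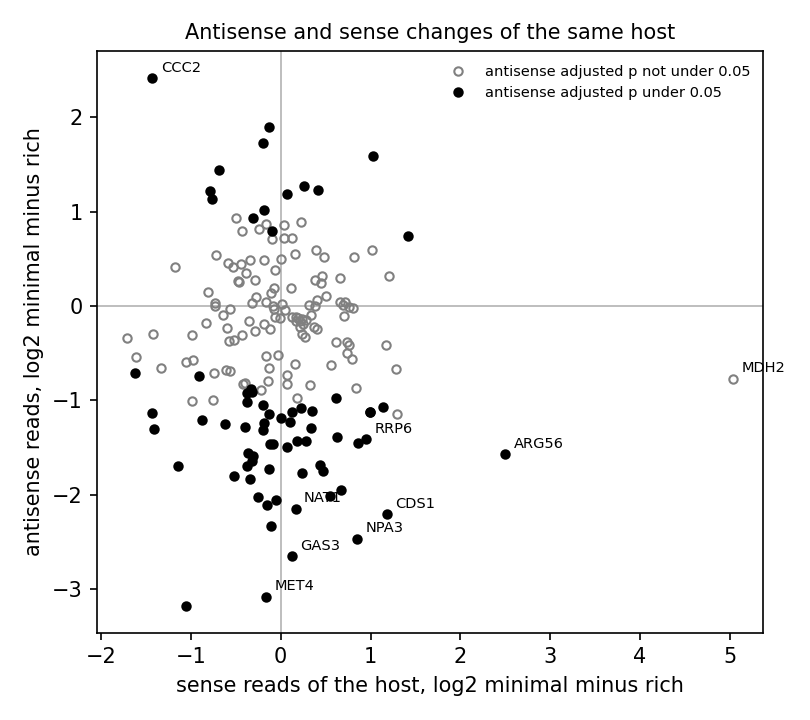
Log2 change (minimal minus rich) of antisense reads against that of sense reads for the 188 hosts in which both were tested, with hosts whose antisense reads passed an adjusted p of 0.05 filled. The points form no line (r = -0.06), MDH2 standing far right at a sense change of 5.04 and CCC2 top left at an antisense change of 2.41.

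A direct test of whether antisense reads changed by another amount than the host's sense reads took 430 hosts with a mean of at least 5 reads of each kind per library. It called 54 (12.6%), with 13 relatively higher and 41 relatively lower antisense in minimal medium and 127 with an unadjusted p under 0.05. The count went to 0 without minimal medium replicate 1 and to 0 without minimal medium replicate 2, where 87 and 86 hosts had an unadjusted p under 0.05, and it was 19 with DESeq2, 16 with no filter on low counts and 11 of 291 hosts without the 50 nt at the host's ends. These calls thus need both minimal medium libraries.

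Relative to sense, the antisense reads of the 5 hosts named for the smallest adjusted p fell most in minimal medium at MDH2 (YOL126C), for the cytosolic malate dehydrogenase of gluconeogenesis. MDH2 had 10.2 and 9.58 antisense CPM in minimal medium, against 20.4 and 14.8 in rich medium, and 12.8 and 9.58 sense CPM in minimal medium, against 0.486 and 0 in rich medium. The antisense over sense change was -5.81 on the log2 scale (SE 0.73, adjusted p = 0.0013), nearly all of it from the sense reads (log2 5.04), while the antisense change alone did not pass (log2 -0.77, adjusted p = 0.097). At ARG56 (-4.08, adjusted p = 0.0044), CDS1 (-3.38, 0.0031), YLR108C (-4.15, 0.0083) and ISA1, for maturation of iron-sulfur proteins (-2.21, 0.008), the antisense reads were themselves called lower. In the other direction stood YML122C (5.02, adjusted p = 0.012), CCC2 (3.84, 0.0029), NIP100, for a dynactin subunit (2.95, 0.011), PTI1 (2.01, 0.013) and NEJ1, for a factor of DNA end joining (2.54, 0.021). Antisense of NIP100 was 8 and 6 reads in minimal medium, against 3 and 3 in rich medium. For NEJ1 it was 5 and 9 in minimal medium, against 6 and 3 in rich medium. Both were too few for the test of antisense alone. The main site of NIP100 lay 565 nt past the stop codon of its convergent neighbour SPT14, so a long SPT14 mRNA cannot be told apart.

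Antisense was not always the lesser strand. Averaged over the 4 libraries, antisense reads exceeded sense reads in 98 of the 248 tested hosts (39.5%), and the median host had 66.7% as many antisense as sense reads. Sense reads past a tandem neighbour's start codon count for that neighbour, which lowers the host's own, and among the 203 hosts whose neighbour was convergent or at least 300 nt away antisense was above sense in 79 (38.9%). Since the 248 had to have enough antisense reads to be tested, this share does not describe all hosts. Across the 248 hosts the Spearman correlation of antisense and sense levels was -0.10 and -0.13 in minimal medium, against -0.04 and -0.03 in rich medium.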

How the data were processed

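The files deposited by the authors hold raw counts, 1 line for each cleavage position with its chromosome and strand. Per the labels' protocols, the authors amplified the 3′ ends of poly(A)+ RNA from total RNA. Alignment was with Bowtie2 (version not given) and the assembly named is that of S. pombe, ASM294v2, per the submitters' processing notes. The S. cerevisiae coordinates were therefore checked against R64 (RefSeq), in which the next base was A at 0.221% of 18999 positions with at least 20 reads, against 26.3% 8 nt downstream. Positions were read as 1-based.

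Sense reads were those from the start codon to 500 nt past the stop codon. Sites joined positions within 24 nt. One table of sense and antisense counts was tested with edgeR 4.0.16 in R 4.3.3 (quasi-likelihood F-test, TMM, filterByExpr, Benjamini-Hochberg, threshold 0.05), with DESeq2 1.42.0 as an alternative. CPM values are reads scaled to 1000000 nuclear reads. Antisense over sense was the strand by medium term with a term per library. Values per library were compared by exact two-sided permutation with SciPy 1.17.1. Intervals are 95% and cover counting error only. The fit was tested on simulated data. Named hosts are the 10 with the highest mean antisense CPM over the 4 libraries, the 10 largest called changes each way with at least 5 CPM in the higher group, the list of genes known for antisense RNAs, called members of the other lists (at most 4 each), the 5 smallest adjusted p each way for antisense over sense, and at most 6 called genes of the antisense RNA control list. Genes named as neighbours or for orientation fall outside that rule. The members and lists were chosen with earlier results of these data known.

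Replicates were not duplicates: chi-square per degree of freedom over all features was 2.16 in minimal and 7.83 in rich medium, and over antisense hosts 1.01 (371 hosts) and 1.37 (597 hosts).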

Additional observations from a re-analysis of the deposited data

How the results depend on the processing

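Antisense share, hosts at equal depth and median position kept their direction under every alternative run. The count of changed antisense hosts (89) was 24 with DESeq2, 43 without the 50 nt at the host's ends (chosen after seeing the data, with fewer hosts tested) and 45 to 83 with 1 library left out. The count for antisense over sense (54) was 19 with DESeq2, 16 with no filter on low counts, 11 without the 50 nt at the ends and 0 to 41 with 1 library left out. The cause was not tested beyond the fewer hosts and samples. Other scalings, filters, masks and joined sites gave 71 to 121 and 51 to 55. No result changed direction. Of 495 values of named hosts under alternatives, 427 kept their side of the threshold, 61 lost the call and 7 gained one. With replicate number as a block the counts were 92 and 70, and ERT1 (adjusted p = 0.033) and CSS1 (adjusted p = 0.044) passed. Same-numbered libraries deviated together only weakly (r = 0.06 over antisense features) and 2 pairs do not show that the numbers pair the samples. Depth limits what can be tested: 248 of 2936 hosts passed the filter, and with 2 libraries a medium the exact permutation test cannot go below p = 0.333.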
